A study of Caenorhabditis elegans with 2 samples.

Results

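Binding of the transcription factor LIN-1 was examined at the genes for the proteins of the cytosolic ribosome in the nematode Caenorhabditis elegans. The set was chosen by name: nuclear protein-coding genes whose names start with rpl-, rps- or rla-, and ubl-1, in the Ensembl annotation of the WBcel235 assembly. It held 82 of 19973 nuclear protein-coding genes, 50 of the large subunit (rpl- and rla-) and 32 of the small subunit (rps- and ubl-1). The data were peak lists from chromatin immunoprecipitation and sequencing (ChIP-seq) of whole animals in 1 group of 2 biological replicates. All animals were of strain RW12212, in which CRISPR had inserted a TY1, EGFP and 3xFLAG tag into lin-1 on chromosome IV (allele st12212). They were L4 larvae at 48 hours, grown from hatchlings held starved as L1 after bleaching. The labels describe precipitation with an antibody to GFP, but name lin-1 in the antibody field, and this was not resolved here. Whole animals were used, so no peak can be placed in a cell type, and binding in few cells cannot be told apart from weak binding in many. A control experiment that the labels name was not analysed here, so signal at these promoters that does not come from LIN-1 was not tested.

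Ribosomal proteins fold and hold the ribosomal RNAs. The small subunit reads the messenger RNA and the large subunit joins the amino acids. All growing cells need them in large and equal amounts, and their genes are among the most strongly transcribed of an animal. In the worm many of these genes lie head to head with another gene, and many messenger RNAs receive a spliced leader, so that an annotated gene start can lie downstream of the site where transcription begins. LIN-1 belongs to the ETS family, whose members share a DNA-binding domain that reads a GGAA core, and is known as a target of Ras and ERK signalling in the making of the vulva.

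The sequences under the summits, the positions of highest signal that the authors' list gives for each peak, are shown for some of these peaks. They are the 4 highest and others picked as examples of recurring words, so every sequence shown holds such a word. Each is the reference strand of WBcel235 turned to read in the direction of the ribosomal protein gene, and reaches 50 bases to each side of the summit. Capitals mark words of 8 letters, on either strand, that were found in 4 or more of the ribosomal protein summit windows. Of the 26 genes with a summit 9 held no such word, among them rps-19, rps-20, rps-26 and rps-28. The windows lie at chrIII:3867510-3867610 (plus strand) for rpl-3, chrIV:4750018-4750118 (minus strand) for rpl-20, chrIII:7854641-7854741 (plus strand) for rpl-35, chrIV:654872-654972 (minus strand) for rpl-15, chrIII:4475607-4475707 (plus strand) for rps-1, chrIV:13240636-13240736 (minus strand) for rpl-12, chrIV:12391300-12391400 (minus strand) for rps-23, chrIV:13881910-13882010 (plus strand) for rpl-29 and chrIII:1950368-1950468 (plus strand) for rps-22.
rpl-3: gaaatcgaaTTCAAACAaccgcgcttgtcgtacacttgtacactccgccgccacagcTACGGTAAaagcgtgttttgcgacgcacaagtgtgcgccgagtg
rpl-20: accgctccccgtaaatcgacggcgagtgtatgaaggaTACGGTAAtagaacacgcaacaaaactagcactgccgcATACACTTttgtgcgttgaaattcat
rpl-35: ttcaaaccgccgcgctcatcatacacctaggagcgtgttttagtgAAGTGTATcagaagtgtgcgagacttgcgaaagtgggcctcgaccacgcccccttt
rpl-15: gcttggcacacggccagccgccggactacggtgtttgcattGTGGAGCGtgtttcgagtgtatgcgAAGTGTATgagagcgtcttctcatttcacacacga
rps-1: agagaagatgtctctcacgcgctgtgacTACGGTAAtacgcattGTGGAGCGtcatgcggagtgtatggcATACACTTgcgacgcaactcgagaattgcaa
rpl-12: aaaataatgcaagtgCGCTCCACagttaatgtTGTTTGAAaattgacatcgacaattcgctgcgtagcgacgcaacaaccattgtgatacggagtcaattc
rps-23: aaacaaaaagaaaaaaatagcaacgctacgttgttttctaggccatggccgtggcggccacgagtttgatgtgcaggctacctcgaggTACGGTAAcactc
rpl-29: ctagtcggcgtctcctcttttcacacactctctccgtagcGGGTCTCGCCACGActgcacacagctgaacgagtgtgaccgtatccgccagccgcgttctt
rps-22: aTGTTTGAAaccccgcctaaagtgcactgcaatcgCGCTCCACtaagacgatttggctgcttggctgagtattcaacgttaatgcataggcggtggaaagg

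Of the 82 genes, 26 (31.7%, exact 95% binomial interval 21.9 to 42.9%) had a summit in the promoter window, which ran from 1000 bp upstream to 200 bp downstream of the gene start. Over all nuclear protein-coding genes the share was 5.25%. These summits came from the conservative list, which the authors derived from both replicates and thresholded on the IDR (irreproducible discovery rate), which is low where ranked peaks recur between lists. Because rpl-24.1 and rps-10 start head to head over 1 peak, the 26 genes stood for 25 peaks. In the other thresholded list of the series 25 members had a promoter summit, against 5.51% of all genes, and rps-6 was the member that dropped out. In the own list of replicate 1 there were 19 such members against 2.65% of all genes, and in that of replicate 2 there were 20 against 3.43%. Counting only conservative peaks that overlapped a peak of each replicate's own list, 16 members remained, or 19.5%, against 1.79% of all genes. A summit between head-to-head genes counts for both in these shares. When each summit was given to its nearest gene start only, 18 of 82 members (22.0%) had one. The share over all genes was not computed in that setting. No p-value is given, since the gene set was chosen with earlier results of these data known, and intervals cover counting error over genes only.

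**Figure D1:**
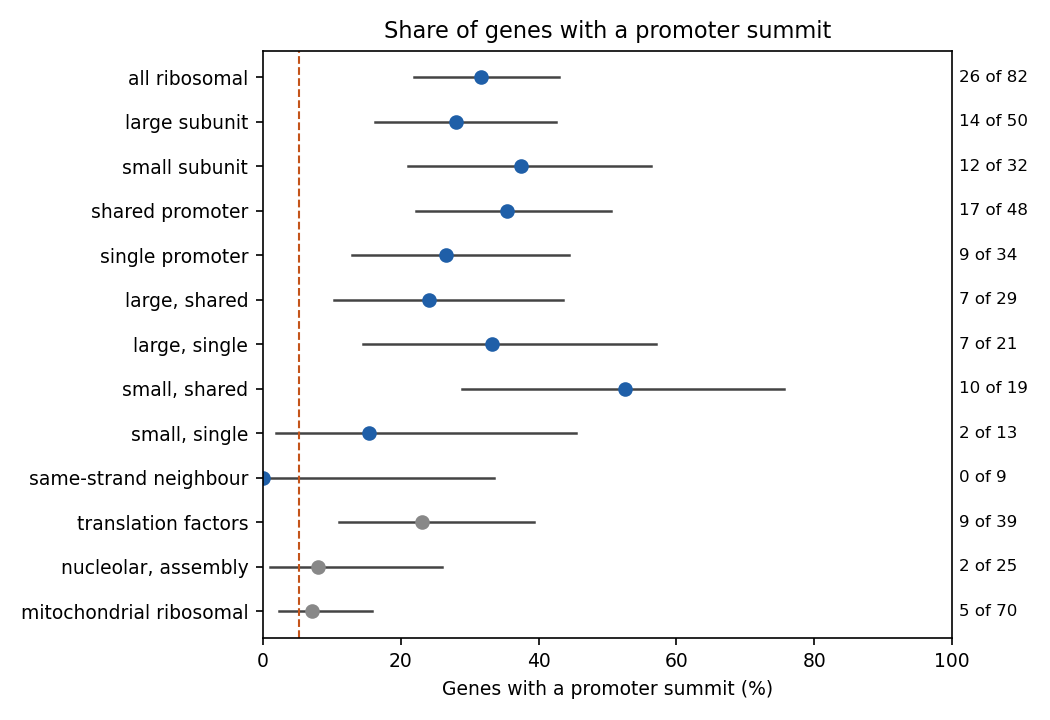
Share of genes with a promoter summit in the conservative list, in percent on the horizontal axis. Points are shares, lines are exact 95% binomial intervals, counts stand at the right, and the dashed line marks the 5.25% found over all nuclear protein-coding genes. Blue points are groups of cytosolic ribosomal protein genes and grey points are related gene lists; the 26 of 82 ribosomal protein genes with a summit give 31.7%.

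The large subunit held the highest peaks. The gene rpl-3 encodes a protein that reaches into the peptidyl transferase centre. Its peak (chromosome III, 3867453 to 3867679) reached 224 in replicate 1's own ranked list and 299 in that of replicate 2, and 516 in the conservative list, the highest of any nuclear peak there. Signals were given by the authors for each peak, on a scale that is not stated. The peak at rpl-20 (chromosome IV, 4749974 to 4750176) stood at 158 and 204 in the replicates and 353 in the conservative list. That of rpl-35 (chromosome III, 7854603 to 7854784), whose protein lies at the exit of the peptide tunnel, stood at 138 and 158, and 297 in the conservative list. That of rpl-15 (chromosome IV, 654839 to 655005) stood at 130 and 135, and 260 in the conservative list. These 4 genes were thus the highest of the set in both replicates, and their order was the same in each.

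Next in the large subunit came rpl-7A (chromosome IV, 4390602 to 4390687), with 65.1 in replicate 1, 100.7 in replicate 2 and 170 in the conservative list. The stalk-base gene rpl-12 (chromosome IV, 13240615 to 13240719) had 69.5 and 66.5 in the replicates and 131 in the conservative list. Its summit lay 35 bp upstream of the annotated start, the shortest distance in the set. Conservative signals of the remaining large subunit genes were 111 at rpl-41.2, which encodes a very short basic protein, and 110 at rpl-11.2, whose mammalian counterpart binds the 5S ribosomal RNA. They were 93.1 at rpl-14, 91.0 at rpl-24.2, 83.9 at rpl-29, 77.5 at rpl-1, whose protein forms the L1 stalk, 63.3 at rpl-24.1 and 61.6 at rpl-21. In replicate 1 these 8 genes ran from 22.3 to 54.7, and in replicate 2 from 25.7 to 73.7. All 8 lay below rpl-12 in replicate 1, while rpl-11.2 lay above it in replicate 2.

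In the small subunit, rps-19 and rps-1 were highest in the conservative list and in replicate 2, while in replicate 1 rps-20 lay between them. The gene rps-19, whose human counterpart is the one most often mutated in Diamond-Blackfan anaemia, had a peak (chromosome I, 9626028 to 9626149) of 76.3 in replicate 1 and 123 in replicate 2, and 204 in the conservative list. At rps-1 (chromosome III, 4475605 to 4475741) replicate 1 was the higher, with 111 against 95.2, and the conservative signal was 202. The order of these 2 genes was therefore opposite in the replicates. The peak at rps-20 (chromosome I, 14469297 to 14469388) had 78.3 and 68.8 in the replicates and 150 in the conservative list. That at rps-26 (chromosome I, 14759497 to 14759577), whose protein lies where messenger RNA leaves the subunit, had 69.9 and 70.6, and 137 in the conservative list. Among the highest summits of the 26 genes, that of rps-26 was the only one within 200 bp of a tRNA, snoRNA, snRNA or rRNA gene. This was the snoRNA gene F39B2.14. The rps-26 promoter was also the only one of the set with 2 summits.

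Lower small subunit signals began with rps-28 (chromosome IV, 1659203 to 1659311), at 63.2 and 68.4 in the replicates and 132 in the conservative list. The gene rps-23 (chromosome IV, 12391202 to 12391497), whose protein lies at the decoding centre, had 42.3 and 68.3, and 113 in the conservative list. Then followed conservative signals of 106 at rps-24, 101.1 at rps-12, 76.8 at rps-22, 71.6 at rps-15, 65.9 at rps-6, whose protein is the substrate of S6 kinase, and 63.3 at rps-10. In the replicates' own ranked lists these 6 genes ran from 22.3 to 67.6 in replicate 1 and from 37.5 to 55.5 in replicate 2. Of them, rps-24 had its higher value in replicate 1 (67.6 against 40.1).

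**Figure D2:**
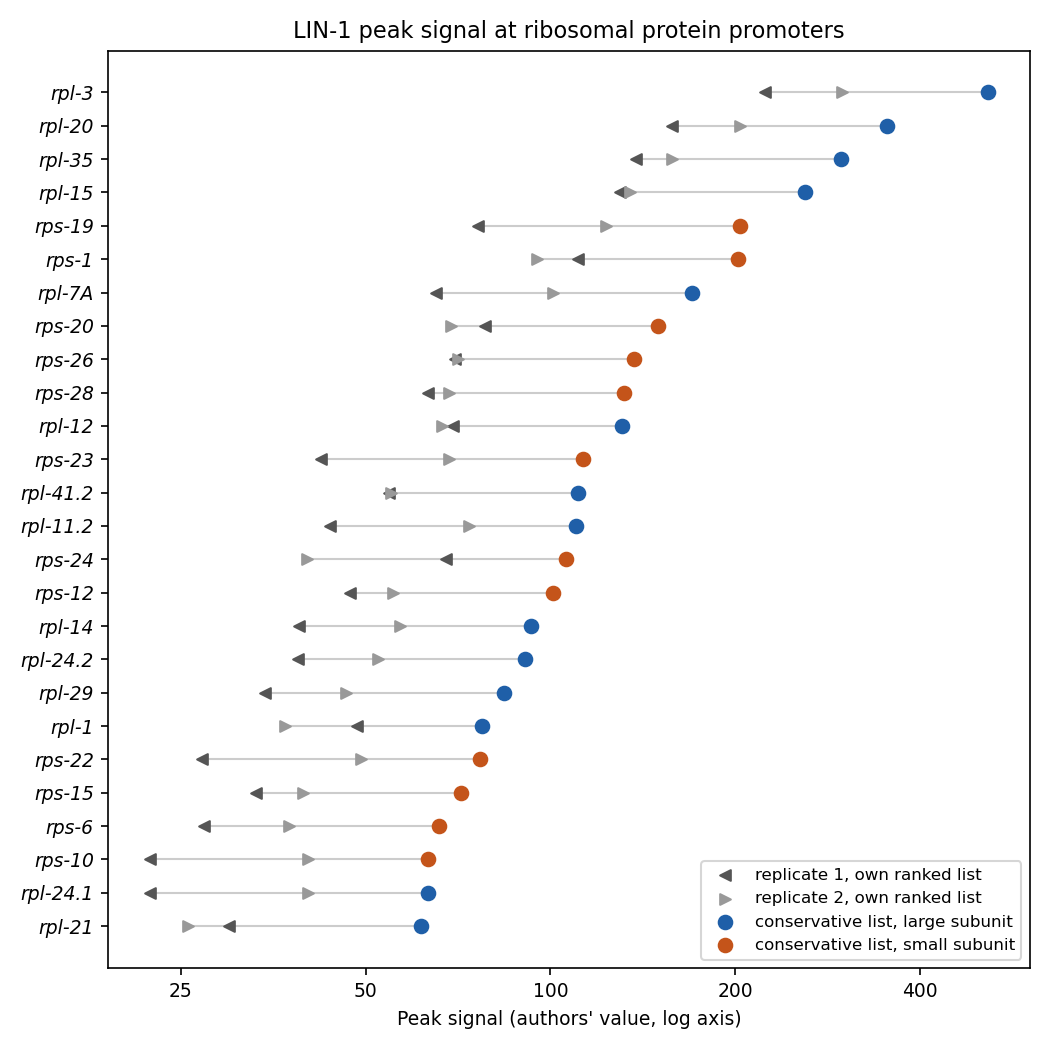
Signal of the promoter peak of each of the 26 ribosomal protein genes with a summit (horizontal axis, authors' value, log axis). Circles are the conservative list, blue for the large and orange for the small subunit; triangles are the overlapping peak of each replicate's own ranked list. The conservative signal runs from 61.6 at rpl-21 to 516 at rpl-3, and replicate 2 lies above replicate 1 at 20 of 26 genes.

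Signal was mostly higher in replicate 2. It was so at 20 of 26 genes, with a median ratio of 1.24 (range 0.593 to 1.81). Among other genes with a promoter summit it was higher in replicate 2 at 680 of 1005, with a median ratio of 1.17. The replicates' values were not stated to be on 1 scale. The replicates' own summits lay a median of 19 bp apart over the 25 ribosomal protein peaks (highest 68 bp) and were 50 bp apart or less in 24 of them. At the promoter peaks of other genes the median was 28 bp, and 74.0% lay within that distance. Of the 26 genes, 16 (61.5%) had a peak in both replicates' own thresholded lists, against 33.3% of the 1023 other genes with a summit. A further 2, rps-24 and rpl-29, were in replicate 1's list only, and rpl-14, rpl-24.2, rps-22 and rps-15 in replicate 2's list only. The genes rps-6, rpl-24.1, rps-10 and rpl-21 were in neither, and these 4 had the lowest conservative signals of the set.

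Median signal was higher at ribosomal protein genes with a summit than at other genes with one. The median of the 26 genes was 110 (quartiles 79.1 and 165), and that of the other 1023 genes 77.8 (quartiles 64.7 and 100). The 1023 genes include neighbours that share a peak with a ribosomal protein gene, and their highest signal, 353, was that of the rpl-20 peak. This overlap holds wherever these 1023 genes are compared. Of the 26, 19 lay above the other genes' median and 16 above their upper quartile. Ribosomal protein peaks were 2.75% of the 909 nuclear promoter peaks, and they made up 3 of the 10 highest, 7 of the 50 highest and 11 of the 100 highest. This was not tested, since the highest of these genes were known when the set was chosen.

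The shares of large and small subunit genes overlapped within their intervals. A promoter summit was found at 14 of 50 large subunit genes (28.0%, interval 16.2 to 42.5%) and at 12 of 32 small subunit genes (37.5%, interval 21.1 to 56.3%). The large subunit share minus the small subunit share was -9.50 percentage points, with a Newcombe 95% interval from -29.7 to 10.5 points. Median signals were 110 in both, while the 4 highest signals, 260 and above, were all of the large subunit and the small subunit reached 204. Of the genes for the stalk that recruits elongation factors, rla-0, rla-1 and rla-2 had no summit in the conservative list, and rpl-12, at the base of the stalk, had one. In replicate 1's own list alone, rla-1 had a promoter summit, with a signal of 23.6. The order of the subunits turned when each summit was given to the nearest gene start only: then 12 of 50 large subunit genes (24.0%) and 6 of 32 small subunit genes (18.8%) had one.

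Promoters were called shared where another protein-coding gene started on the other strand within 1000 bp upstream. This was so for 48 of 82 ribosomal protein genes (58.5%), against 17.6% of other genes. Of the shared promoters 17 (35.4%, interval 22.2 to 50.5%) had a summit, and of the 34 single promoters 9 (26.5%, interval 12.9 to 44.4%). The difference was 8.95 points, with a Newcombe interval from -11.6 to 27.4 points. Among other genes the shares were 8.36% of 3491 shared and 4.46% of 16400 single promoters. The pattern ran differently in the subunits: shared promoters had a summit in 10 of 19 small and 7 of 29 large subunit genes, and single promoters in 2 of 13 small and 7 of 21 large subunit genes. The intervals of these 4 shares overlapped, and the difference between the subunits was not tested. Median signals were 113 at shared and 110 at single promoters. The shared share fell below the single share with replicate 1's own list (22.9 against 23.5%), at an IDR of 0.001 (25 against 26.5%) and with the nearest start alone (18.8 against 26.5%).

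At the 17 genes with a shared promoter and a summit, the highest summit was nearer the neighbour's start in 9 and the gene's own start in 8. The summit between rpl-24.1 and rps-10 was counted once on each side. The higher of the 2 summits of rps-26 lay 407 bp upstream of its own start and 50 bp from that of tmem-107. With each summit given to its nearest start only, 9 genes with a shared promoter had one, against 8 by the highest summit. The added gene was rps-26, whose lower summit lay nearer its own start. The rpl-20 summit lay 290 bp from its own start and 172 bp from that of Y17G9B.5. That of rps-19 lay 279 bp from its own and 166 bp from that of hsr-9. In contrast, the rpl-12 summit lay 35 bp from its own start and 358 bp from that of lin-54, which encodes a DNA-binding subunit of the retinoblastoma-like DRM complex. The rps-1 summit lay 261 bp from its own start and 507 bp from that of ifet-1, which encodes a binding partner of the cap-binding factor eIF4E. Of 3 pairs of ribosomal protein genes that start head to head, rpl-24.1 with rps-10 had a peak, and rpl-36 with rps-14 and rpl-39 with rps-30 had none. The neighbours of rpl-9 (lpd-7), rpl-28 (mrpl-49) and rpl-30 (pab-1), which serve ribosome assembly, the mitochondrial ribosome and poly(A) binding, shared promoters that also lacked a summit.

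Another arrangement in the worm genome is the operon, in which genes follow each other closely on 1 strand and the downstream genes lack a promoter of their own. Operons were not annotated in the files used, so closeness alone was counted. In 9 ribosomal protein genes the end of a gene on the same strand lay within 500 bp upstream, and none of the 9 had a summit (0%, interval up to 33.6%). They were rla-1, rpl-16, rpl-19, rpl-25.1, rpl-27, rps-2, rps-7, rps-16 and rps-17, and the gene 110 bp upstream of rps-16 was fib-1, which encodes the nucleolar methyltransferase fibrillarin. All genes with a same-strand neighbour had counted as single promoters. Of the 25 remaining single promoters, with neither kind of neighbour, 9 had a summit (36.0%), close to the 35.4% of shared promoters. Among other genes these shares were 3.80% of 3606 with a same-strand neighbour and 4.67% of 12835 with neither.

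The summits lay in a narrow band upstream. At all 26 genes the summit was upstream of the annotated gene start, from 35 to 462 bp, with a median of 292 bp (quartiles 254 and 344). Other genes with a summit had a similar median, 269 bp, but wider quartiles, 136 and 526. At 21 of the 26 genes (80.8%) it lay between 200 and 500 bp upstream, against 34.3% for other genes. The summit shared by rpl-24.1 and rps-10 counts for both. This band was not planned in advance, and the difference was not tested. The exceptions were rpl-12 (35 bp), rpl-7A (80 bp), rps-22 (117 bp), rpl-24.2 (146 bp) and rps-12 (167 bp). Among these 5 genes all but rpl-24.2 have a shared promoter, with the neighbour's start no more than 393 bp away. By annotation the summit was intergenic at 21 genes, in a non-coding exon at 4 and in an intron at 1, rpl-24.2. The 4 include rpl-24.1 and rps-10 with their 1 summit. With a window of 500 bp upstream to 100 bp downstream the same number of genes, 26, had a summit, as follows from these distances.

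**Figure D3:**
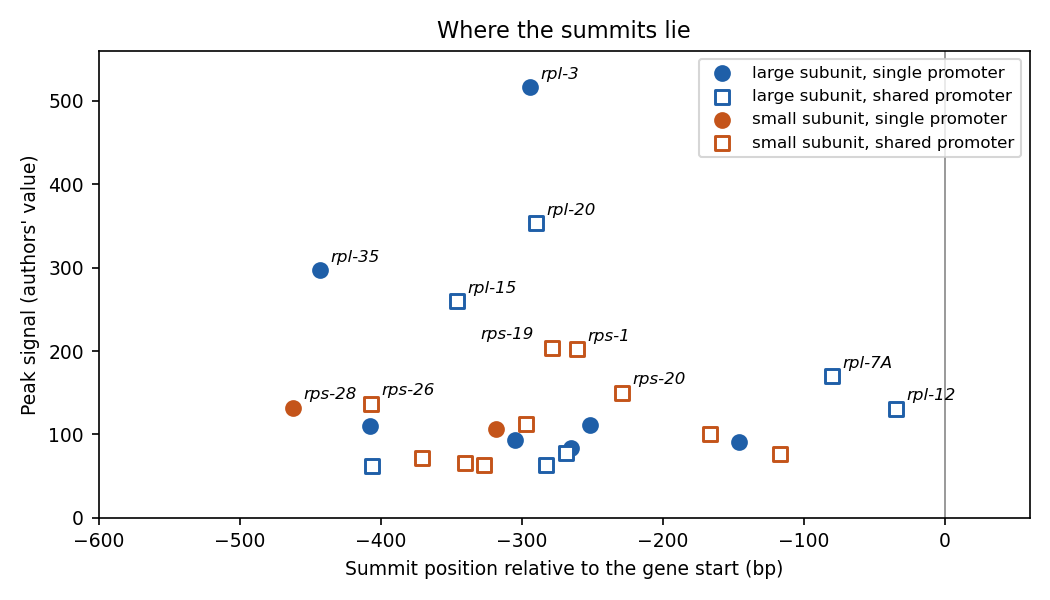
Position of the summit relative to the gene start in bp (horizontal axis, negative is upstream) against peak signal (vertical axis, authors' value) for the 26 ribosomal protein genes with a promoter summit. Blue is the large and orange the small subunit, filled circles are single and open squares shared promoters, and the grey line is the gene start. All points lie upstream, 21 of them between 200 and 500 bp.

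The genes with a summit were unevenly spread over the chromosomes. Chromosome I had 11 of 25 (44%), chromosome III 6 of 19 (31.6%), chromosome IV 8 of 18 (44.4%) and chromosome X 1 of 2. None of the 10 genes on chromosome II (interval up to 30.8%) or of the 8 on chromosome V (interval up to 36.9%) had one. Other genes had summits on these chromosomes in 5.26% and 3.95%, close to the 5.15% of chromosome I and 4.63% of chromosome IV. On chromosomes III and X the shares of other genes were higher, 7.06% and 5.94%. The genes on chromosome II are rpl-5, rpl-10, rpl-22, rpl-26, rpl-32, rpl-33, rpl-36.A, rpl-42, rpl-43 and rps-9, and those on chromosome V are rpl-2, rpl-11.1, rpl-28, rpl-38, rpl-39, rps-16, rps-27 and rps-30. This split was noticed in the values and was not tested. The only summit that a wider window, from 2000 bp upstream to 500 bp downstream, added to the set was at rpl-43 on chromosome II, 458 bp downstream of its start, with a signal of 93.3, and it lay in the promoter window of xrn-2.

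**Figure D4:**
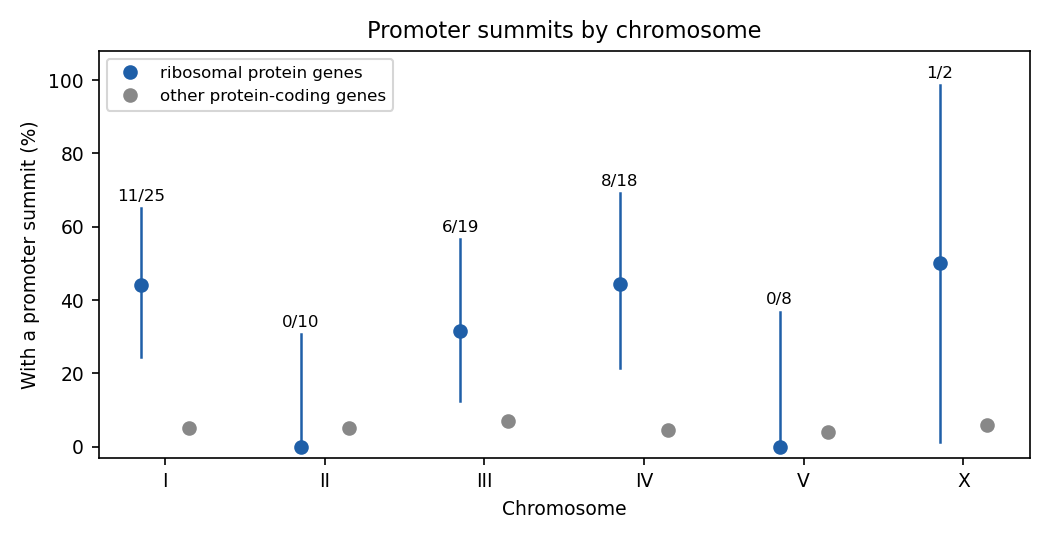
Share of genes with a promoter summit by chromosome, in percent, for the ribosomal protein genes (blue, with counts above) and the other protein-coding genes (grey). Lines are exact 95% binomial intervals. The ribosomal protein genes of chromosomes II and V are at 0.

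Many of the 56 genes without a summit had a ranked peak that did not pass the threshold. In the ranked list behind the conservative list, before thresholding, 48 of the 56 (85.7%) had a summit in the promoter window, against 41.4% of the 18868 other genes without a thresholded summit. The highest ranked signal in the window had a median of 35.3 (range 11.9 to 52.2) at these 48 genes and of 25.3 at the 7819 others. Thresholding kept peaks whose −log10 of the global IDR was 2.00 or more. At the 48 genes the median was 0.482 (quartiles 0.204 and 0.848), and at the 7819 others 0.218. Most of these ranked peaks thus lay far from the threshold and did not recur well between lists. Just outside the threshold were rps-11 at 1.97 (signal 52.2), rpl-16 at 1.91 (signal 39.6), rps-4 at 1.86 (signal 50.7) and rpl-7 at 1.79 (signal 48.9). Just inside it were rpl-21 at 2.10 (signal 61.6), and rpl-24.1 and rps-10 at 2.11 (signal 63.3). The 8 genes without even a ranked summit in the window were rla-2, rpl-25.1, rpl-34, rpl-37, rpl-41.1, rpl-42, rps-2 and rps-8. Of all 82 genes rpl-19 alone had a thresholded summit within the gene body downstream of the window, in a coding exon, with a signal of 56.0.

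The set holds 4 pairs of genes whose names differ only in the digit after the point. In 2 of the pairs 1 gene had a summit, in 1 pair both had one and in 1 pair neither had. The genes rpl-24.1 and rpl-24.2 both had a summit, with 63.3 and 91.0. At rpl-11.2 on chromosome X the signal was 110, while rpl-11.1 on chromosome V had a ranked peak of 25.1 only. At rpl-41.2 it was 111, and rpl-41.1, also on chromosome I, had no ranked peak in the window. Neither rpl-25.1 nor rpl-25.2 had a summit, although rpl-25.2 had a ranked peak of 30.9.

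The windows of 50 bp to each side of the 25 ribosomal protein summits were searched for ETS sequences. The motif CCGGAA, on either strand, was in 0 of 25 (interval up to 13.7%), against 2.49% of the 884 other promoter summits, 4.05% of the 1334 nuclear summits outside promoters and 3.72% of windows of this size placed 292 bp upstream of all 19973 gene starts. These shares lie within that interval. The motif CGGAAG was in 1 window (4%), that between rpl-24.1 and rps-10, against 3.39% of other promoter summits and 2.58% of windows at all gene starts. The bare core GGAA was less frequent than in the other windows, in 7 of 25 (28.0%, interval 12.1 to 49.4%), against 55.8% of other promoter summits, 63.2% of windows at all gene starts, and 26 of 50 (52.0%) windows centred 500 bp to each side of the ribosomal protein summits. CCGGAA and CGGAAG contain GGAA, so these counts overlap. None of the 12 highest summits, rpl-3 to rps-23, had GGAA in its window. The windows were richer in G and C, with a mean of 50.6%, than those of other promoter summits (45.9%) or of all gene starts (34.4%), and the part of base composition in these counts was not tested.

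Other short words recurred under these summits, and they are the capitals in the sequences shown above. There were 12 words of 8 letters, counted with their reverse complements, in 4 or more of the 25 windows, and 17 of the 26 genes had at least 1. They were picked from these windows, so their counts there are a description. TACGGTAA was in 5 windows, those of rpl-3, rpl-20, rps-1, rps-23 and the peak shared by rpl-24.1 and rps-10, against 0.679% of other promoter summits and 0.411% of windows at all gene starts. AAGTGTAT was in 4, those of rpl-20, rpl-35, rpl-15 and rps-1, which are 4 of the 6 highest, against 0.226% and 0.541%. CGCTCCAC was in 5, those of rpl-15, rps-1, rpl-12, rps-22 and rps-15, against 1.81% and 0.290%. TGTTTGAA was in 4, those of rpl-3, rpl-7A, rpl-12 and rps-22, against 1.24% and 1.63%. The rps-1 window held 3 of these words.

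A further 7 of the 12 words overlap each other and were found together at rpl-41.2, rpl-14, rpl-29 and rps-6, genes of middle to low signal. At rpl-29 they merge into the run of 14 capitals in its sequence. The last word, GCCACGAA, overlaps their end and was at rpl-41.2, rpl-14, rps-6 and, on its own, rps-24. Ribosomal protein genes without a summit were not used to pick the words. In the 500 bp upstream of these 56 genes, AAGTGTAT and CGCTCCAC were each in 0 (interval up to 6.38%), TACGGTAA was in 4 (7.14%) and TGTTTGAA in 2 (3.57%), against 2.37%, 1.25%, 1.97% and 8.14% of 19891 other genes. CGAGACCC, 1 of the 7 overlapping words, was in 18 of the 56 (32.1%) and in 4 of the 26 genes with a summit (15.4%), against 2.58% of other genes. GCGAGACC was likewise in 18 of the 56, and in 5 of the 26 (19.2%). The remaining words of the 7 were less frequent upstream of the genes without a summit: GGCGAGAC was in 9 of the 56 (16.1%), and CGCCACGA, CGTGGCGA, CTCGCCAC and TCTCGCCA were each in 5 (8.93%), against 5 of the 26 (19.2%) for each of these 5 words. The genes with a summit had served to pick the words, so the differences between both sets of genes were not tested. A match describes letters only, and no match says only that these letters are not in the window.

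Related genes were counted in the same way, with lists that were also chosen with earlier results of these data known. Translation initiation and elongation factors had a promoter summit in 9 of 39 (23.1%, interval 11.1 to 39.3%). The highest were iff-2, an eIF5A gene, with a signal of 182, eef-1G with 151 and eif-3.C with 109. Proteins of the mitochondrial ribosome had 5 of 70 (7.14%, interval 2.36 to 15.9%), with mrpl-39 at 186, mrpl-32 at 92.1 and mrpl-23 at 89.8. Nucleolar and ribosome assembly genes had 2 of 25 (8%, interval 0.984 to 26%), which were pro-1 at 93.2 and rbd-1 at 65.5. This list was set by name and also held rack-1 and ubq-2, so its label is approximate. The interval of the cytosolic ribosomal protein genes thus lay above that of the mitochondrial ones and overlapped those of the other 2 lists. The share over all nuclear protein-coding genes, 5.25%, lay within the intervals of the mitochondrial and nucleolar lists. It lay below the interval of the translation factors. No difference between these lists was tested.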

How the data were processed

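LIN-1 ChIP-seq of 2 biological replicates was deposited as peak lists on ce11, per the labels, which is the same assembly as the WBcel235 reference used here; no peak of the conservative lists passed the end of a chromosome. Each peak carries a signal that the authors deposited without a stated scale. The ranked list also holds the −log10 of the global IDR, deposited by the authors, and the thresholded conservative list (2267 of 48593 peaks) held no peak below 2.00. The replicates' own lists held 1079 and 1348 peaks. Caller, aligner, versions and read depth were not found in the labels or file notes used here, so depth and its precision are unknown. Per the deposited file notes, each replicate's lists derive from its own alignment and the series lists from the alignments of both. A score for each list compared, deposited by the authors in the ranked list, served only to find repeated peaks.

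The members and lists were chosen with earlier results of these data known. Gene starts came from Ensembl release 115. A gene's signal is its highest promoter peak's, and a replicate's is that of the highest overlapping peak (1 bp or more) of its own ranked list. Every member with a summit was named, the 12 highest in full, with pairs whose names differ only after the point and up to 3 genes of each related list. Other members without a summit were named, and the recurring words and the splits by chromosome and same-strand neighbour chosen, after their values were seen. The band of 200 to 500 bp upstream was not planned in advance. Code was tested on simulated summits. Coordinates are 1-based. Python 3.11.15, pandas 2.3.3, scipy 1.17.1 and statsmodels 0.14.6 were used.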

Additional observations from a re-analysis of the deposited data

How the results depend on the processing

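No paired analysis was possible because there was 1 group. Each value was recomputed under 12 to 16 alternatives, which were other lists, IDR thresholds, windows, gene starts, definitions of a shared promoter and motifs. The share of ribosomal protein genes with a promoter summit ran from 19.5 to 32.9%, and left its own interval only with peaks of both own lists (19.5%), where fewer peaks enter. With the nearest start alone the small subunit share was 18.8% and that of shared promoters 18.8%, since a summit then counts for 1 gene. The share of windows with an ETS motif was 28.0% with GGAA, a shorter motif, and 4% at most otherwise. The large and single promoter shares and the summit distance (-292 to -281 bp) stayed within their intervals under every alternative run.

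With either replicate's own list in place of both, the share of all members was 23.2 to 24.4%, that of the large subunit 22.0%, of the small subunit 25 to 28.1%, of shared promoters 22.9 to 27.1% and of single promoters 20.6 to 23.5%. The median signal was then 67.6 and 68.6, as signals of the own lists run lower. The median distance was -282 and -281 bp, and CCGGAA was in 0% of windows. The large subunit share was below that of the small subunit in 11 of 12 alternatives, and the shared share above the single share in 11 of 14. All alternatives draw on the same replicates, and several, such as the narrower window, left both differences unchanged. These counts are therefore no independent support, and the Newcombe intervals of both differences ran over both signs. Unknown depth limits all absences: genes without a summit may hold binding below the threshold.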
